A study of Mus musculus with 2 samples.

Results

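Complement component 3 (C3) and 8 further genes of the alternative complement pathway were examined in the mid colon of wild-type (WT) and C3 knockout (C3 KO) mice. The genes were taken by symbol from the annotation of the array and comprised C3 itself, its convertase partners Cfb, Cfd and Cfp, the regulators Cfi, Cd55 and Cr1l, and the receptors C3ar1 and Itgam. These 9 genes were measured by 10 transcript clusters, because Cd55 had 2, out of 33793 main transcript clusters and 30921 gene symbols on the array. A transcript cluster is the set of short probes that the array uses for a transcript. Total RNA of untreated 16-week-old mice, WT on the FVB strain and C3 KO on an FVB background, was hybridized to Affymetrix Mouse Gene 2.0 ST arrays, at 1 array for each of the 2 groups. Per the study's methods, both genotypes came from crosses of mice heterozygous for C3. Which part of C3 is deleted, which sex the mice had, and whether an array held RNA of 1 mouse or a pool were not given in the sources used here. In the sample records the tissue is the distal colon, but the RNA step names the mid colon.

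The alternative pathway is the branch of complement that needs no antibody to start. C3 turns over slowly in fluid, factor B (Cfb) joins the activated C3, factor D (Cfd) cleaves factor B, and the resulting C3 convertase, which properdin (Cfp) stabilizes, cuts more C3 into C3a and C3b. Factor I (Cfi) cuts C3b with the help of cofactors, Cd55 and Cr1l limit convertases on the cell surface, C3ar1 senses C3a, and Itgam, with its partner Itgb2, binds a cleaved form of C3b on myeloid cells. Most circulating C3 is made in the liver, while epithelial, stromal and myeloid cells of the gut wall also make complement proteins.

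Levels are RMA values on the log2 scale, where 1 unit stands for a factor of 2. As each group had 1 array, no error between mice and no p-value could be given, and a fold of 1.5 in either direction, a log2 difference of 0.585, marked a gene as higher or lower. Levels are given for WT first. Of all main clusters, 3.66% were higher in C3 KO by this rule and 3.82% were lower. The 23 antigenomic background probe sets, which match no mouse transcript, had a median of 4.20 for WT (range 1.45 to 8.56) and of 3.99 for C3 KO (range 1.48 to 8.11). The array cannot separate fewer cells of a type from less RNA per cell. The arrays also differed in sex-linked genes, with Xist, the RNA of the inactive X chromosome, at 10.35 against 3.81 and the Y-linked Ddx3y at 5.18 against 7.68. All 12 pancreatic acinar genes examined were lower in C3 KO, from a mean level of 12.19 to 5.10. Genotype, sex-linked signal and acinar signal lay on the same arrays and cannot be told apart. Of 10 genes of the colon epithelium, 9 stayed within 1.5-fold and 1, Car1, was lower, at 11.5 and 10.4. Of the 10, 6 had a difference above 0 and 4 below. Muc2, the brightest, read 13.23 and 12.74. Slc26a3, the chloride and bicarbonate exchanger of the colon surface, read 12.06 and 11.87, and Cdh1 read 11.85 and 12.05.

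C3 was lower in the C3 KO array, the direction that the genotype label implies, and its signal did not fall to the background median. It read 8.15 on the WT array against 6.80 on the C3 KO array. The log2 difference was -1.35, a 2.54-fold decrease, so that 39.3% of the WT signal was present. In the C3 KO array, C3 stood 2.81 log2 units above the background median, and 7 of the 23 background probe sets were brighter. In the WT array it stood 3.94 above, and 3 were brighter. The cluster has 31 probes over 24164 bases of chromosome 17 (57203973 to 57228136, minus strand, GRCm38), which spans the gene, and the level sums them up. The single probes were not analysed here, so it was not tested whether some probes lost all signal. Of 33793 main clusters, 97 had a difference as low as that of C3 or lower, C3 included.

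The sequences around an annotated start of C3 and of Cd55 are shown because these 2 genes hold the clusters that passed 1.5-fold. Each covers the 250 bases before a start and the first 50 bases after it, in the C57BL/6J reference (RefSeq, GRCm38.p6), not in FVB DNA. For C3 the start is that of the RefSeq gene, and for Cd55 it is that of the NM_010016 cluster, while the RefSeq gene of Cd55 runs farther upstream, to base 130465009 of chromosome 1. The promoters of 7 of the 9 members were found in the table used, and Cfb and Cfi had none there. Capitals mark matches, on either strand, to TTNNGNAA (a short form of the C/EBP site), TATAAA and GGGCGG (an Sp1 site). The search also held CCAAT, TTCNNNGAA and the NF-kappaB motif, which neither sequence matched.
C3, chr17:57228087-57228386, minus strand: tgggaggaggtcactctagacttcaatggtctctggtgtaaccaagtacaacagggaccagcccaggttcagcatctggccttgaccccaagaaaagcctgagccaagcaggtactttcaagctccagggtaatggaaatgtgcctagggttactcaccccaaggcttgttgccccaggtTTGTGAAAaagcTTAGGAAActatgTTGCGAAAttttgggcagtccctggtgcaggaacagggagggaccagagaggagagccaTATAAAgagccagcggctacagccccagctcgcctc
Cd55, chr1:130462695-130462994, minus strand: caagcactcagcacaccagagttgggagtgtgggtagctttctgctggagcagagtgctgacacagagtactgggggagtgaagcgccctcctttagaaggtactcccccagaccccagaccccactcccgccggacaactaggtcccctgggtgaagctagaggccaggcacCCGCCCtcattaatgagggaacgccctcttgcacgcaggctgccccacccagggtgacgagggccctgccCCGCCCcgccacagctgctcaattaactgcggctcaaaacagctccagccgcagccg

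The C3 window holds 3 matches to TTNNGNAA, at bases -70 to -63, -58 to -51 and -45 to -38, where base 1 is the first after the start, and a TATAAA at bases 15 to 20, just inside the annotated gene. Of 32851 mouse promoter windows of the same length, 40.7% hold TTNNGNAA and 13.6% hold TATAAA. C/EBP proteins are known activators of C3 in the acute phase. The Cd55 window holds GGGCGG at bases -77 to -72 and -7 to -2, as do 35.7% of the windows at least once, and 63.3% of its bases are G or C, against a mean of 53.8%. These matches are letters of the reference, and no binding or promoter activity was measured on the arrays.

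**Figure D1:**
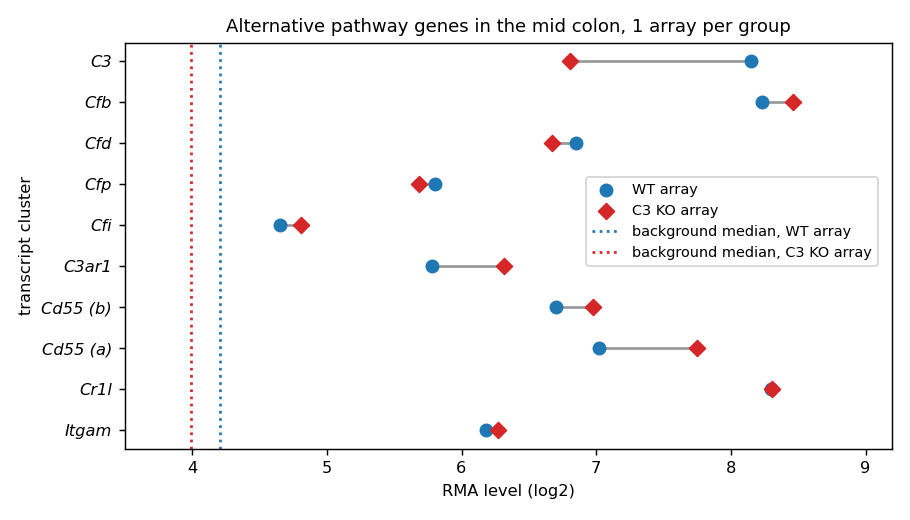
RMA level (log2, x axis) of each of the 10 transcript clusters of the alternative pathway genes in the WT array (circles) and the C3 KO array (diamonds), with the background medians as dotted lines; Cd55 (a) is the cluster of NM_010016 and Cd55 (b) that of XM_006536928. C3 moves from 8.15 to 6.80 and Cd55 (a) from 7.02 to 7.75, while the circle and diamond of Cr1l lie on each other.

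The partners that build the C3 convertase did not follow C3. Cfb, the protease subunit of the convertase, read 8.23 for WT and 8.46 for C3 KO, a log2 difference of 0.23. Cfd, the serine protease also known as adipsin, read 6.85 and 6.68, a difference of -0.18. Cfp, which encodes properdin, read 5.81 and 5.68, a difference of -0.12. The folds of these 3 genes, from 1.09 to 1.17, were all below 1.5. Cfb lies on chromosome 17 like C3, from 34856374 to 34862518, directly next to C2, the related protease of the classical pathway, with 83 bases between their clusters. C2 read 4.86 and 5.20, a difference of 0.35 in the same direction as that of Cfb.

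Cfd is made in large amounts by fat cells, and mesenteric fat can adhere to colon samples. Of 14 adipocyte genes, 2 were lower and 0 were higher, beside 3.82% and 3.66% of all main clusters. The median log2 difference of the 14 was -0.20, beside 0.00 over all main genes. The 2 lower genes were Lpl, a lipase of the vessel wall, at 8.10 against 7.50, and Car3, at 8.97 and 8.38. Of the 14, 12 were below 0 and 1, Cidec, was above 0, at 5.99 and 6.23. Pnpla2, the brightest after Car3, read 8.37 and 8.22. Adipoq, a hormone of fat cells, was at 5.94 and 5.61. The difference of -0.18 in Cfd was close to this median, and the part of fat in it was not tested.

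Among the regulators, Cd55 was the one with a cluster past 1.5-fold. The cluster of its reference transcript NM_010016 (chromosome 1, 130439027 to 130462744, minus strand, 13 probes) read 7.02 for WT and 7.75 for C3 KO, a log2 difference of 0.73 or 1.66-fold. A further cluster, for the predicted variant XM_006536928 (130429781 to 130437214, 18 probes), lies 1812 bases downstream and read 6.70 and 6.98, a difference of 0.28. The array annotation gives an mRNA assignment coverage of 62 for the NM_010016 cluster, the one past 1.5-fold, and of 100 for the further cluster. Both clusters were higher in C3 KO and their differences were 0.45 log2 units apart. Averaged over both, Cd55 read 6.86 and 7.36, a difference of 0.50, which lies below 1.5-fold. Cd55, the decay accelerating factor, takes the convertase apart on the cell surface.

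The other membrane regulator, Cr1l (known as Crry in rodents), was the member with the smallest difference. It read 8.30 for WT and 8.31 for C3 KO, a log2 difference of 0.01. Crry acts both on convertases and as a cofactor for factor I. Cfi, the protease that inactivates C3b and is chiefly a liver product, read 4.65 and 4.81, a difference of 0.16. It was the dimmest of the members against the background, 0.45 log2 units above the background median in WT and 0.82 in C3 KO, which limits how small a change in Cfi could be seen.

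The receptor of C3a, C3ar1, came close to the threshold, and Itgam did not. C3ar1, a G protein-coupled receptor of myeloid cells and other cells, read 5.78 for WT and 6.32 for C3 KO, a log2 difference of 0.54 or 1.45-fold. Of all main clusters, 1541 were as high or higher by difference. Itgam, which encodes the CD11b chain of complement receptor 3 and whose cluster reaches 9669 bases past the RefSeq gene, read 6.18 and 6.27, a difference of 0.09. Both receptors and Cfp are expressed by myeloid cells. Of 18 macrophage and monocyte genes, 0 were higher and 0 were lower, with a median log2 difference of 0.13. Within that list, Mrc1, a mannose receptor of tissue macrophages, read 7.18 and 7.70, and Adgre1, a surface marker of mouse macrophages, 5.92 and 5.52. Of 13 neutrophil genes, 1 was higher and 1 was lower, beside 3.66% and 3.82% of all main clusters. Of the 13, 2 did not exceed the background median of either array, and the median log2 difference was -0.09. The higher gene, Retnlg, read 3.91, below the background median, and 4.53. The lower gene, S100a8, was below the background median on both arrays, at 3.56 and 2.89, so that neither fold is exact. Ly6g, the brightest of the 13, read 7.10 and 7.61, a log2 difference of 0.505. Mmp9 read 6.02 on both arrays, and Csf3r read 5.44 and 5.29. What these cells contribute to the difference in C3ar1 was not tested.

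**Figure D2:**
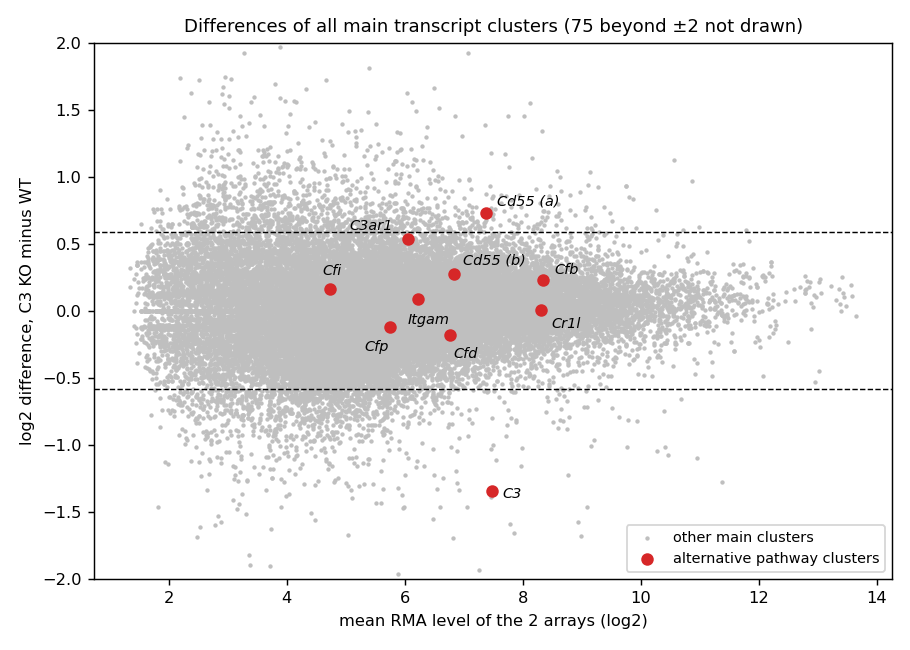
Log2 difference between the arrays (C3 KO minus WT, y axis) against the mean RMA level of the 2 arrays (log2, x axis) for all main transcript clusters (grey) and the 10 alternative pathway clusters (red), with dashed lines at 1.5-fold. C3 at -1.35 and the NM_010016 cluster of Cd55 at 0.73 lie outside the lines, C3ar1 at 0.54 just inside, and 75 clusters beyond 2 log2 units are not drawn.

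Counted by cluster, 1 of 10 was higher (Cd55) and 1 of 10 was lower (C3), beside the 3.66% and 3.82% of all main clusters. Counted by gene, 0 of 9 were higher and 1 was lower, and the remaining 8 genes ranged from -0.18 to 0.54 with a median of 0.13. Of these 8, 6 were above 0 and 2, Cfd and Cfp, were below, while 48.5% of all main clusters were above 0. The 6 include Cr1l at 0.01, which went to -0.04 when differences were centred by level (loess). The median log2 difference of main clusters was 0.03 at mean levels from 6 to under 8, and 0.04 from 8 to under 10. From the lowest to the highest, the log2 differences ran C3, Cfd, Cfp, Cr1l, Itgam, Cfi, Cfb, Cd55 and C3ar1. With 1 array per group, the order of genes next to each other in this series has no error and cannot be told from measurement noise. C3 stood 0.81 log2 units farther from 0 than C3ar1, the next gene by size. The share past 1.5-fold depended on level: of the 9080 main clusters with a mean level from 6 to under 8, where C3, Cd55, C3ar1, Cfd and Itgam lie, 2.26% were higher and 1.76% were lower by the same rule.

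Further genes of the pathway were taken as 3 lists, of regulators of C3b, receptors of C3 fragments with their partners, and activators and enzymes that process the anaphylatoxins. Of 16 genes, 3 were higher, 1 was lower and 12 did not pass 1.5-fold, and the median of their log2 differences was 0.145. Over all main clusters, 3.66% were higher and 3.82% were lower, with a median of 0.00. Among the 16, 4 had a mean level of 6 or more, and of these 0 were higher and 1 was lower. Of main clusters with a mean level from 4 to under 6, where the 3 higher genes lie, 3.58% were higher and 4.82% were lower.

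Among the regulators of C3b, Cd55b, the neighbour of Cd55 that encodes its transmembrane form in mice, was higher. It read 4.17 for WT, below the background median, and 4.95 for C3 KO, so that its fold of 1.71 is not exact. Its cluster lies 6771 bases from the nearer Cd55 cluster on chromosome 1, and all 3 clusters of the pair are annotated as matching 1 locus. Cd46, a cofactor that mice express mainly in the testis, was at 5.52 and 5.78, and Susd4, a membrane inhibitor of complement, at 5.94 and 6.11. Csmd1, a large membrane protein with complement control domains, was at 4.80 and 4.63.

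Among the receptors, Cr2 and Itgax were higher. Cr2, which encodes complement receptors 1 and 2 of B cells and follicular dendritic cells in mice, read 4.40 and 5.15 (1.68-fold). Its WT level lay close to the WT background median of 4.20, which limits how exact this fold is. Itgax, the CD11c chain of complement receptor 4, read 5.32 and 5.93 (1.52-fold). Itgb2, which pairs with both Itgam and Itgax, was at 6.25 and 6.32, a difference of 0.07, beside 0.09 for Itgam and 0.61 for Itgax. Of 10 B cell genes, 3 were higher, 0 were lower and 7 did not pass 1.5-fold, with a median log2 difference of 0.41, beside 3.66% higher over all main clusters, and Blk was at -0.42. Ms4a1, which encodes CD20, was among the higher ones and read 4.53 and 5.83. The other two were Bank1, an adaptor of the B cell receptor, and Pax5, a transcription factor of B cells. The part of B cells in the Cr2 difference was not tested. Vsig4, a receptor for C3b on macrophages, read 4.49 and 4.14. C5ar1, a receptor of the related fragment C5a, was at 5.41 and 5.29, and C5ar2, a further receptor of C5a, at 5.90 and 6.13.

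Among activators and processing enzymes, Cpn1 was the one that was lower. It encodes the catalytic chain of carboxypeptidase N, which trims C3a in plasma, and read 6.55 for WT and 5.49 for C3 KO, a log2 difference of -1.06 or 2.08-fold. Its partner chain Cpn2 was near the background, at 4.11 and 4.24. The 12 acinar genes were lower in the same array, and their part in the Cpn1 difference was not tested. Masp1, whose variant MASP-3 activates factor D, had a difference of -0.05. Hc, which encodes C5, and Cpb2 did not reach the background median of either array.

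**Figure D3:**
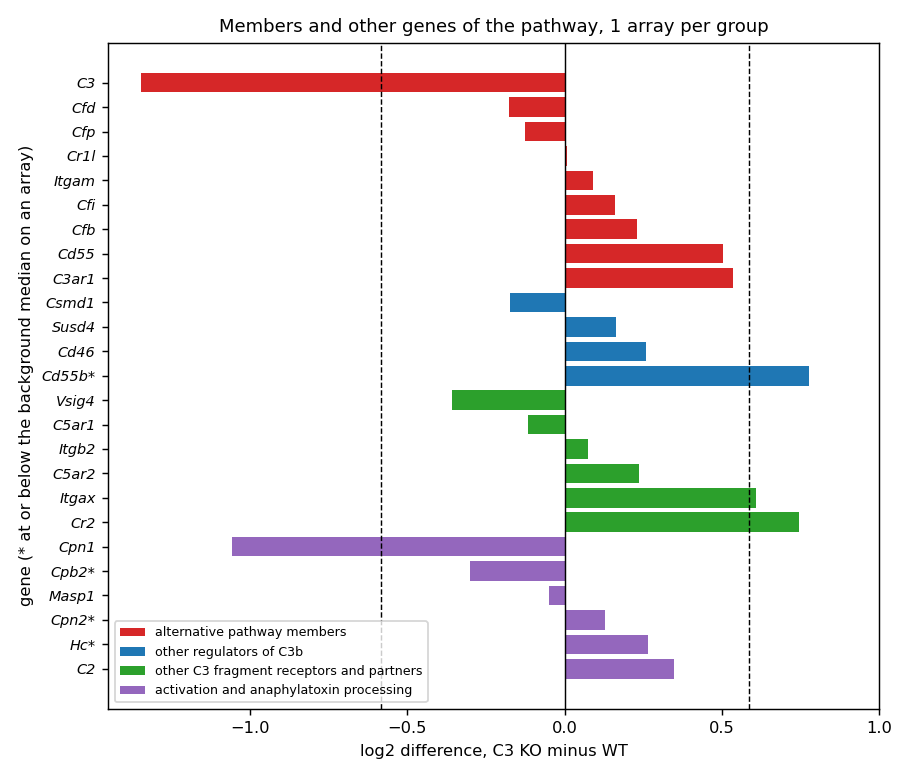
Log2 difference (C3 KO minus WT, x axis) of the 9 members and the 16 other pathway genes, 1 bar per gene and coloured by list, with dashed lines at 1.5-fold and an asterisk where a level lay at or below the background median. C3 (-1.35) and Cpn1 (-1.06) extend below the threshold, and Cd55b (0.78), Cr2 (0.74) and Itgax (0.61) above it.

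Because C3, Cfb and Cfi are also made by the liver, and fibroblasts and epithelium make C3 locally, genes of these cells were set beside the members. Of 14 hepatocyte genes, 7 were higher and 1, Vtn, was lower, with a median log2 difference of 0.52, while C3 was at -1.35. These counts stand beside 3.66% higher and 3.82% lower over all main clusters. Among the higher ones, Fgg and Serpina1c read 3.56 and 3.59 for WT, below the background median, so that their folds are not exact. When only the 7 hepatocyte genes whose mean level reached 6 were kept, the count was 4 higher and 1 lower. Alb, which encodes albumin, read 7.36 and 8.90. Of 10 fibroblast genes, 1 (Lum) was higher and 0 were lower, with a median of 0.08, and Dcn, a matrix proteoglycan of fibroblasts, was at 9.18 and 9.37. Of 10 genes of the colon epithelium, 0 were higher and 1, Car1, was lower, with a median of 0.05. The part of these cells in the C3 signal was not tested.

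**Figure D4:**
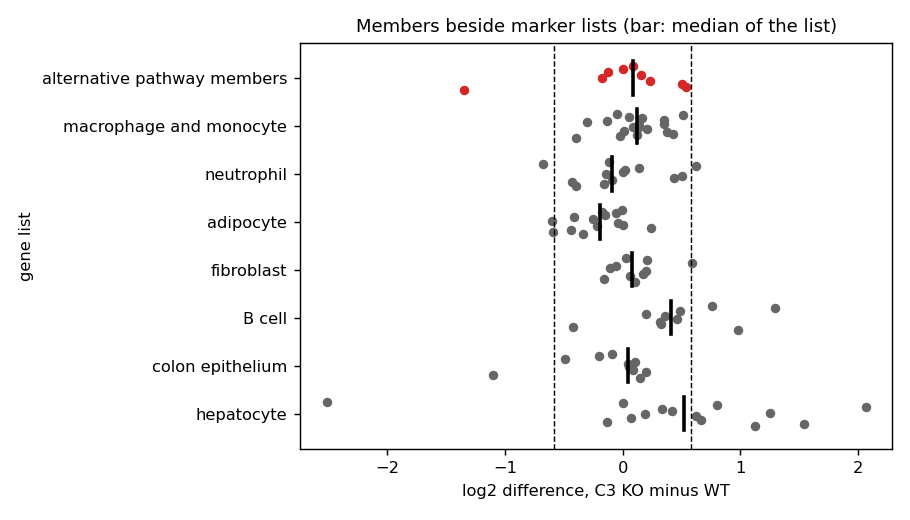
Log2 difference (C3 KO minus WT, x axis) of the 9 members (red) and of the genes of 7 marker lists (grey), 1 point per gene, with the median of each list as a bar and dashed lines at 1.5-fold. The medians of the adipocyte (-0.20) and neutrophil (-0.09) lists lie below 0, and those of the B cell (0.41) and hepatocyte (0.52) lists lie highest.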

How the data were processed

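Levels of mid colon RNA from 1 WT and 1 C3 KO sample were used as the authors deposited them, in log2 units after gene-level RMA in Affymetrix Power Tools (version not given in the sources used here). RMA corrects for background, makes the distributions of the arrays alike and sums up the probes of a cluster. The data hold no spread between mice, because each group had 1 array, and the number of arrays limits the precision. The deposited tables of enrichment, and the table of folds and volumes, hold the authors' own comparisons and were not used.

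Rows of the main category with a member's symbol were taken. A gene with several clusters got the mean of their log2 levels, and differences are C3 KO minus WT. Coordinates are those of the deposited annotation, and the ends of 6 of the 9 members' genes lie within 10 bases of GRCm38.p6. The lower coordinate of Cr1l lies 5077 bases inside its RefSeq gene, the upper one of Itgam 9669 bases past its own, and the upper one of Cd55 is 130462744 where RefSeq has 130465009. Genes were called at 1.5-fold without a test. The 15 gene lists, with that of the members among them, were chosen with earlier results of these data known. Named genes were every member, any gene of the lists of the pathway, the C3 family and the inducers of C3, and from each cell type list the genes with the highest level or the largest difference at a mean level of 5 or more. Some regulators of C3b are not reported here. Adipoq, Blk, Fgg, Pax5, Retnlg, S100a8 and Serpina1c were picked after their values were seen. The alternatives were centring on the median, loess centring (fraction 0.3), the series table, a floor at background, minimum levels of 4 and 6, the brightest cluster and clusters matching 1 locus. A 2-fold threshold was added after seeing the data. The procedure was tested on simulated data with changes planted in bright clusters only. This does not stand in for the spread between mice and does not cover dim genes. Python 3.11.15, pandas 2.3.3, numpy 2.4.6, statsmodels 0.14.6 and matplotlib 3.10.9 were used.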

Additional observations from a re-analysis of the deposited data

How the results depend on the processing

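Under 8 other settings the log2 difference of C3 ranged from -1.39 to -1.35 and that of C3ar1 stayed at 0.54, and of 70 values of single members 69 kept their side of 1.5-fold. The exception was Cd55, at 0.73 with its brightest cluster in place of the mean, which raised the members that were higher from 0 to 1 by gene. Cfi and Cfp had no value at a minimum level of 6. At 2-fold, 0 member clusters were higher and C3 was still lower, and 0 other pathway genes were higher, as also at a minimum level of 6. The main clusters numbered 1237 higher and 1292 lower. They numbered 646 and 813 with levels floored at the background median, 271 and 220 at a minimum level of 6 and 226 and 229 at 2-fold, and 751 were higher at a minimum level of 4. The filters and the floor leave fewer dim clusters that can pass. With 1 array per group, no replicate could be left out. Signal over background limits Cfi most. Of the 10 member clusters, 0 lay above every background probe set on both arrays. For C3ar1, 9 of the 23 background probe sets were brighter in WT and 8 in C3 KO.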

Other observations

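C3 belongs to a family of large proteins built on a reactive thioester, and its relatives went both ways. Of 7 relatives on the array, 1 was higher and 2 were lower, beside 3.66% and 3.82% of all main clusters. The median log2 difference of the 7 was 0.13. Pzp, the pregnancy zone protein, a protease inhibitor that the liver secretes, read 4.59 for WT and 5.94 for C3 KO, a difference of 1.35. C4a read 5.56 and 4.86 (1.62-fold lower), while C4b was at 6.68 and 6.84. C4a and C4b are close copies of each other, so their separate values are uncertain. Mug2 was lower as well, at levels under the background median of either array.

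Cytokines and transcription factors known to induce C3 were mostly within 1.5-fold. Of 10, 0 were higher and 1, Il17a, was lower (5.12 against 4.24, 1.84-fold), beside 3.66% and 3.82% of all main clusters. The median log2 difference of the 10 was -0.21. Cebpd, the C/EBP factor of the acute phase, read 6.01 and 6.46. Cebpa was at 6.86 and 6.35, and Cebpb at 5.79 and 5.77. Rela and Nfkb1, subunits of NF-kappaB and the brightest of the 10, had differences of 0.33 and 0.08. Il1b, Tnf and Ifng, inflammatory cytokines, had differences of -0.43, -0.40 and -0.40, and Il6, below the background median on both arrays, had one of 0.39.

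Among 12199 genes with 1 cluster and a mean level of 6 or more, 48 had a difference as low as that of C3 or lower. The 5 whose difference was nearest to that of C3 were Vsig2 (-1.34), Traj43 (-1.33), Nucb2 (-1.39), Casc4 (-1.29) and the goblet cell gene Retnlb (-1.28). This likeness is a single difference between 2 arrays.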
